A study of Homo sapiens with 12 samples.

Results

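GFI1 and GFI1B are related zinc finger genes, and the H3K4me2 peaks at both loci were examined in the acute myeloid leukaemia line U-937, whose cells resemble early monocytes. The peaks were chosen by position alone: every peak in the gene body or within 100 kb of the canonical start site. The genes themselves were chosen with earlier results of these data known. Both genes were found among 19970 protein-coding genes, and their windows held 46 of the 84577 regions formed by merging overlapping peaks of all lists. Cells were treated for 24 hours with the vehicle DMSO, with all-trans retinoic acid (ATRA) at 0.1 µM, with Corin at 0.1 µM, or with both drugs at 0.1 µM each. Corin is a synthetic inhibitor of the CoREST complex that blocks both the histone demethylase LSD1 and the associated histone deacetylases. Each treatment had 2 H3K4me2 libraries and 1 input library, and each was deposited as 1 pooled peak list. The spread between replicates is therefore unknown, no test across treatments was possible, and what is compared here are lists, not replicated groups. All groups are the same cell line, with no genetic change named in the labels.

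GFI1 and GFI1B are transcriptional repressors with a short N-terminal SNAG domain, which resembles the tail of histone H3 and docks into LSD1, and C-terminal zinc fingers that bind DNA. Through LSD1 and CoREST they remove methyl groups from H3K4 at their target genes. GFI1 acts in granulocyte differentiation and blood stem cells, whereas GFI1B is needed for red cells and platelets. Each gene is known to be repressed by GFI1 and GFI1B themselves. H3K4me2, a mark of promoters and enhancers, is a substrate of LSD1.

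The bases just upstream of each canonical start site are shown because the peaks described next lie over or beside them. Capitals mark AATC, the core of the motif bound by GFI1 and GFI1B, found on either strand (on the opposite strand it reads GATT). Both sequences are RefSeq promoter sequences on GRCh38, printed 5′ to 3′ on the gene's strand. The GFI1 sequence is chr1:92486926-92487175, minus strand, and the GFI1B sequence is chr9:132978444-132978650, plus strand, which stops where an earlier GFI1B transcript begins.
GFI1: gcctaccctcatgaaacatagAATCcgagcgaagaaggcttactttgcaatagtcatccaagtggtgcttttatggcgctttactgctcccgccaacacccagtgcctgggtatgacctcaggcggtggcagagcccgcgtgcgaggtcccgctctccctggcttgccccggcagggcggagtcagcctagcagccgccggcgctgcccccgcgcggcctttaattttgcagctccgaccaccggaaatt
GFI1B: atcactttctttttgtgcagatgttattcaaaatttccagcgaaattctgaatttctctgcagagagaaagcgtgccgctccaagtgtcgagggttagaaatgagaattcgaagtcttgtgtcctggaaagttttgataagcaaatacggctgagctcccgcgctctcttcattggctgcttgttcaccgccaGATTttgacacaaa

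The full promoter windows of 300 bases, from 250 before to 50 after the start site, differed in base composition. The GFI1 promoter had a GC content of 63.3% and the GFI1B promoter 42.3%, beside a median of 58.7% over 35116 RefSeq promoters. The ratio of observed to expected CpG was 0.899 for GFI1 and 0.682 for GFI1B, beside a median of 0.579. AATC occurred once in the GFI1 window and 4 times in the GFI1B window. Of all promoters of this length, 68.99% hold it at least once, and the share with 4 or more was not computed. The longer form AAATCAC, held by 3.14% of all promoters, the GATA motif AGATAA, held by 10.3%, and the direct repeats of the retinoic acid receptor half-site with 2 or 5 bases between occurred in neither window. The half-site repeats were in 0.0399% and 0.0883% of all promoters.

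The lists held 65172 to 83969 peaks. The fold enrichment over input and −log10 q of each peak are the authors' values and serve here to describe and rank peaks within a list. The fold and −log10 p were also solved for the number of H3K4me2 fragments stacked at each summit. The sequencing background was 1.02 times as high in the ATRA list as in the DMSO list, 1.10 times in the Corin list and 1.199 times in the ATRA+Corin list, and fragment numbers scaled by these factors are called values at DMSO depth. Their 95% Poisson intervals cover counting error only.

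GFI1 (ENSG00000162676.13, GRCh38 chr1:92473043-92486925, minus strand) lay under a very wide H3K4me2 domain in every list. With DMSO the peak over the start site was 12533 bp wide (fold enrichment 32.6) and reached from 3038 bp upstream of the start site to 9494 bp downstream. With ATRA it was 12482 bp wide (fold enrichment 43.2), with edges 3055 bp upstream and 9426 bp downstream. With Corin it was 18962 bp wide (fold enrichment 8.11), running from 3939 bp upstream to 15022 bp downstream, past the 3′ end of the gene. With both drugs the domain was split into peaks of 5615 bp and 12770 bp, separated by a gap of 113 bp that began 1471 bp downstream of the start site. Together these peaks spanned from 4144 bp upstream to 14353 bp downstream. The 2 lists without Corin thus had nearly the same edges, and the 2 lists with Corin reached farther on both sides. Smaller separate peaks lay next to the domain in each list, 1 with DMSO, 3 with ATRA, 2 with Corin and 1 with both drugs, so that the merged region of 20998 bp was covered over 14344, 14500, 19975 and 20340 bp in that order. Peaks as wide as those of the other 3 lists were rare: of the DMSO peaks over a protein-coding start site, 0.148% were at least as wide, beside a median width of 2525 bp, and of the ATRA and Corin peaks 0.219% and 0.0132% were. With both drugs, where the domain was split, 12.1% were at least as wide as the peak of 5615 bp over the start site. The GFI1 start site itself lay under a peak in all lists, as 30.8% of all protein-coding start sites did.

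The wider domain with Corin was not a higher one. The highest summit of the domain lay 6095 bp downstream of the start site with DMSO, 6365 bp with ATRA, 6666 bp with Corin and 6596 bp with both drugs. It held 147 fragments with DMSO (124 to 173). At DMSO depth the ATRA summit held 187 (161 to 215), the Corin summit 99.4 (81.6 to 119.9) and the ATRA+Corin summit 133 (113 to 155). The Corin interval lay below the DMSO interval, and those of ATRA and of both drugs overlapped it. How often intervals lie apart over all shared regions was not computed. The ratio to DMSO was 0.676 for Corin, where the median over 45779 regions shared with DMSO was 0.912 and 16.5% of them had a ratio as low. Among the 329 shared regions of at least 10 kb, the median was 0.717, so GFI1 lay near the middle of wide regions. For ATRA the ratio of 1.27 lay at the median of shared regions, 1.29. The background that the peak caller set at the Corin summit was 12.1 fragments, where the lowest in that list was 3.198. At the DMSO summit it was 2.91, and the fold enrichment is taken over the background at each summit.

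**Figure D1:**
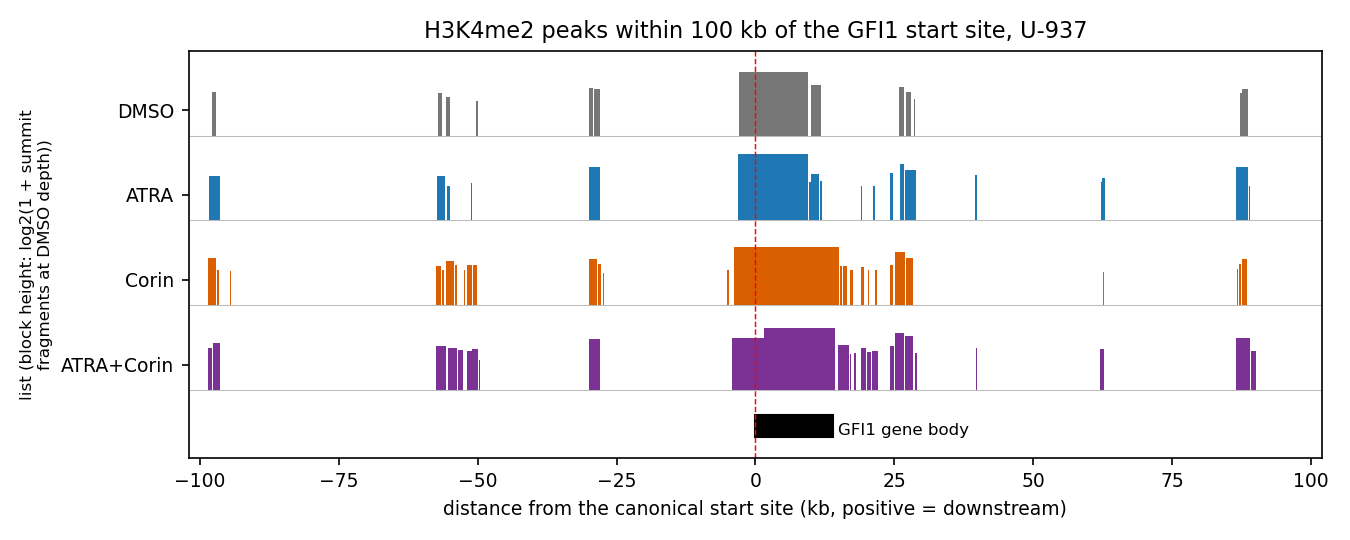
Peaks within 100 kb of the GFI1 start site, 1 row per list, placed by distance from the start site in kb (positive is downstream). Block width is the peak's width and block height is log2(1 + summit fragments at DMSO depth); the black bar is the gene body, and the Corin and ATRA+Corin rows have the wider domain, with added peaks just past the gene's 3′ end in all 3 drug rows.

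Beyond the domain, the GFI1 window gained many small regions. It held 9 regions with DMSO, 14 with ATRA, 20 with Corin and 21 with both drugs, and 8 of its 25 regions were in all lists. Against DMSO, ATRA gained 6 regions and lost 1 of the 15 in either list (40% gained), where 16.4% of all regions in either list were gained and 7.58% lost. Corin gained 11 of 20 regions (55%) and lost 0, where 22.4% of all regions were gained and 7.46% lost. The combination gained 12 of 21 (57.1%) and lost 0, where 34.9% were gained and 4.55% lost. Set against ATRA, the combined treatment added 7 and lost 0 of 21 regions, where 28.4% of all regions were gained and 4.97% lost. Set against Corin, it added 5 and lost 4 of 25, where 24% were gained and 6.59% lost. The gained regions are neighbours of one another: when peaks within 1 kb were merged, each treatment gained 2 regions against DMSO. Many were also weak: with a −log10 q limit of 5, the gains were 3 for ATRA, 5 for Corin and 9 for both drugs. Shares over all regions were not computed with merging or with this limit, so these counts cannot be set beside a genome-wide rate.

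A run of 6 regions lay just past the 3′ end of GFI1, between 16.9 and 24.9 kb from the start site and outside any gene (chr1:92462046-92469987). None was present with DMSO, 3 were with ATRA, 5 with Corin and all 6 with the combination. The bases under peaks in this run were 0 with DMSO, 928 with ATRA, 2363 with Corin and 4049 with both drugs. In strength these peaks lay below the middle of their lists. The highest −log10 q among them was 15.1, from ATRA-treated cells, and 56.3% of the ATRA peaks were at least as strong. The strongest Corin peak of the run had 8.06, and 64.0% of the Corin peaks were at least as strong. A second run lay 49.6 to 57.6 kb upstream within EVI5, outside its exons (chr1:92536498-92544500), with 3, 3, 5 and 6 regions in the order DMSO, ATRA, Corin and both drugs. Its covered length was 1675 bp with DMSO, 2303 bp with ATRA, 5195 bp with Corin and 6465 bp with both drugs. The highest −log10 q in this second run was 14.2, and its ATRA+Corin regions include a region with a value of only 0.559. Both runs were chosen after the values were seen, and how often such runs occur over the genome was not computed.

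Stronger sites lay beyond the first run and between the second run and the gene, each with a peak in every list. The site with its DMSO summit 26319 bp downstream of the start site (chr1:92460050-92461878, between genes) had its summit 26317, 26298 and 26307 bp downstream in the other lists. It held 46 fragments with DMSO (33.7 to 61.4) and, at DMSO depth, 83.6 with ATRA (66.8 to 103), 66.5 with Corin (52.2 to 83.7) and 90.1 with both drugs (73.9 to 109). The intervals of ATRA and of both drugs lay above that of DMSO. How often intervals lie apart over all shared regions was not computed. The median ratio to DMSO over those regions was 1.29 for ATRA, 0.912 for Corin and 1.15 for both drugs. At this site the ratio was 1.82 for ATRA, reached by 5.63% of all shared regions. It was 1.45 for Corin, reached by 10.1%, and 1.96 for both drugs, reached by 8.0%. Its neighbour, with a DMSO summit 27166 bp downstream (chr1:92457920-92459929) held 30 fragments with DMSO (20.2 to 42.8), 53.1 with ATRA (39.9 to 69.3), 41.9 with Corin (30.7 to 55.9) and 68.4 with both drugs (54.4 to 84.9). Only the interval of both drugs lay above that of DMSO there, at a ratio of 2.28 that 3.96% of shared regions reached. The ATRA ratio there was 1.77, reached by 6.97% of shared regions, and the Corin ratio 1.40, reached by 11.8%. A site within EVI5 and outside its exons (chr1:92514789-92516964) had its highest DMSO summit 29698 bp upstream. With ATRA, Corin and both drugs the highest summit lay 28128, 28958 and 29358 bp upstream, so positions differed between lists. These summits held 42 fragments with DMSO (30.3 to 56.8), 64.9 with ATRA (50.2 to 82.6), 39.2 with Corin (28.4 to 52.8) and 55.1 with both drugs (42.6 to 70.1). All intervals overlapped that of DMSO.

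GFI1B (ENSG00000165702.15, GRCh38 chr9:132944000-132991687, plus strand) had no wide domain, and its start site was covered in the ATRA+Corin list alone. With DMSO the nearest peak was 979 bp wide (fold enrichment 12.5) and ended 397 bp upstream of the start site. With ATRA it was 1186 bp wide (fold enrichment 17.1) and ended 302 bp upstream. With Corin it was 1438 bp wide (fold enrichment 11.4) and ended 193 bp upstream, and a weak separate peak of 203 bp began 91 bp downstream with a −log10 q of 3.19. With both drugs 1 peak of 2516 bp (fold enrichment 17.9) ran from 1624 bp upstream to 891 bp downstream. Of all protein-coding start sites, 47.3% were covered with DMSO, 48.1% with ATRA, 38% with Corin and 38% with both drugs. Coverage in the ATRA+Corin list alone was found at 0.741% of all start sites, and coverage with both drugs but not with DMSO at 2.68%.

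Within 5 kb of the GFI1B start site the peaks covered 979 bp with DMSO, 1498 bp with ATRA, 2152 bp with Corin and 3135 bp with both drugs. The combination had the greatest length. With lengths under 1 kb set to 1 kb, the ratio to DMSO was 1.498 for ATRA, 2.15 for Corin and 3.14 for both drugs. Over all protein-coding genes the median ratios in this zone were 1.05, 1.17 and 1.22. A ratio as high as that of GFI1B was reached by 2.37% of genes for ATRA, 0.942% for Corin and 0.563% for both drugs. These shares cannot show that GFI1B is unusual. They cover genes with at least 1 kb in either list, and GFI1B passed only through the drug lists. Its DMSO length was under 1 kb, and the zone was chosen after the values were seen. Without peaks whose −log10 q was under 5, the ratio was 1.498 for ATRA, 1.44 for Corin and 2.83 for both drugs, so that Corin lay below ATRA and below 1.5. The same zone at GFI1, which the domain already filled, had 8039, 8056, 9187 and 9032 bp in that order of lists, with ratios of 1.002, 1.14 and 1.12.

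The height at the GFI1B start site differed less than the width. The highest summit of the region lay 745 bp upstream with DMSO and 972, 1022 and 991 bp upstream with ATRA, Corin and both drugs. It held 58 fragments with DMSO (44.04 to 75.0) and, at DMSO depth, 72.8 with ATRA (57.2 to 91.4), 47.4 with Corin (35.4 to 62.2) and 76.8 with both drugs (61.9 to 94.1). All of these intervals overlapped that of DMSO. A stronger site had its DMSO summit 5776 bp upstream of the canonical start site (chr9:132972329-132973558) and overlapped an exon of the GFI1B transcript that starts farther upstream. It held 109 fragments with DMSO (89.5 to 131), 151 with ATRA (128 to 176), 100.3 with Corin (82.4 to 121) and 143 with both drugs (122 to 166), again with overlapping intervals. The ratios to DMSO of 1.38, 0.920 and 1.31 lay close to the medians over all shared regions, which were 1.29, 0.912 and 1.15.

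**Figure D2:**
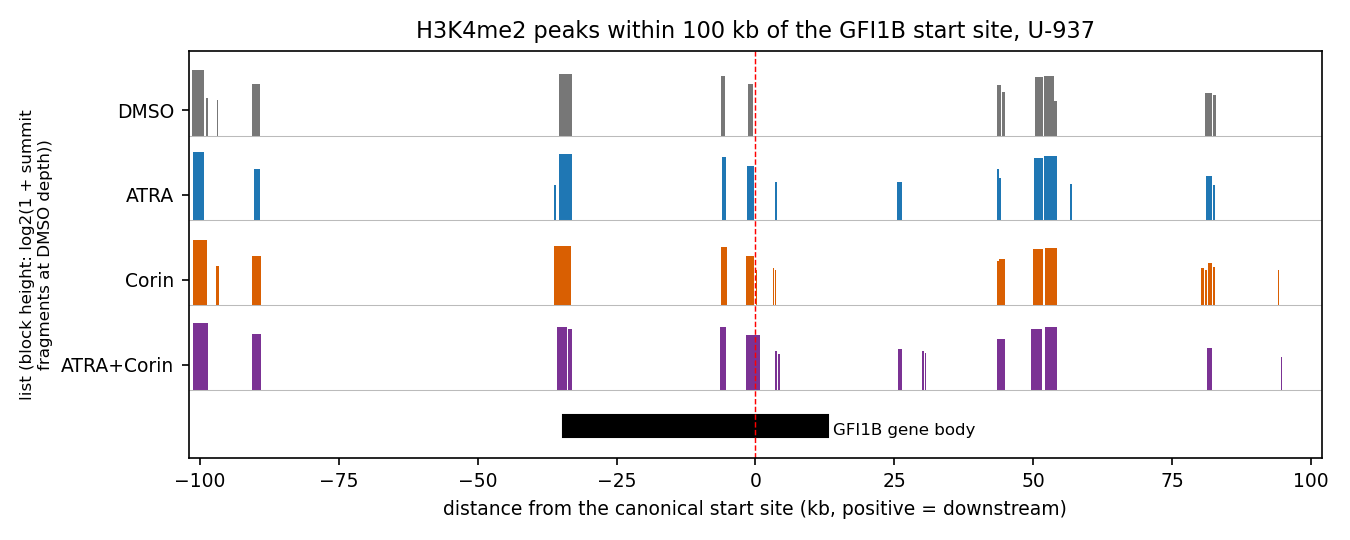
Peaks within 100 kb of the GFI1B start site, 1 row per list, placed by distance from the start site in kb (positive is downstream). Block width is the peak's width and block height is log2(1 + summit fragments at DMSO depth); the black bar is the gene body, and the ATRA+Corin row alone has a block across the dashed start-site line.

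Inside GFI1B, outside its exons, a small region (chr9:132982209-132982535) had a peak in every drug list and none with DMSO. Its summit lay 3655 bp downstream of the start site with ATRA and held 20.7 fragments at DMSO depth with ATRA (12.8 to 31.6), 14.6 with Corin (8.34 to 23.7) and 21.7 with both drugs (14.2 to 31.8), and its −log10 q was 6.51, 0.994 and 6.67 within those lists. These summits were low, and 99.1% of the Corin list's peaks were at least as strong as the Corin peak. A further region past the 3′ end of the gene (chr9:133004255-133005159), had a peak with ATRA (−log10 q of 5.65) and with both drugs (4.94) and none with DMSO or Corin.

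Over the whole window, GFI1B held 11 regions with DMSO, 13 with ATRA, 15 with Corin and 15 with both drugs, and 9 of its 21 regions were in all lists. Against DMSO, ATRA gained 3 of 14 regions and lost 1, Corin gained 4 of 15 and lost 0, and the combination gained 6 of 17 and lost 2. These gains of 21.4%, 26.7% and 35.3% were near the shares over all regions of 16.4%, 22.4% and 34.9%, and under the −log10 q limit of 5 each treatment gained 2. The shares lost over all regions were 7.58%, 7.46% and 4.55%, and under that limit none of the GFI1B regions was lost against DMSO. Shares over all regions under that limit were not computed. The combination gained 4 and lost 2 of 17 regions against ATRA, where 28.4% of all regions were gained and 4.97% lost. Against Corin it gained 5 and lost 5 of 20, where 24% were gained and 6.59% lost. Much of this window belongs to neighbours. The start sites of SPACA9, TSC1, GTF3C5 and CEL lie within it, and the region at the 5′ end of the GFI1B gene model also covers the TSC1 start site, at -34078 bp from the canonical GFI1B start. No other protein-coding start site lies in the GFI1 window. That window still reaches into EVI5 upstream and RPAP2 downstream, and several of its regions lie inside those genes.

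**Figure D3:**
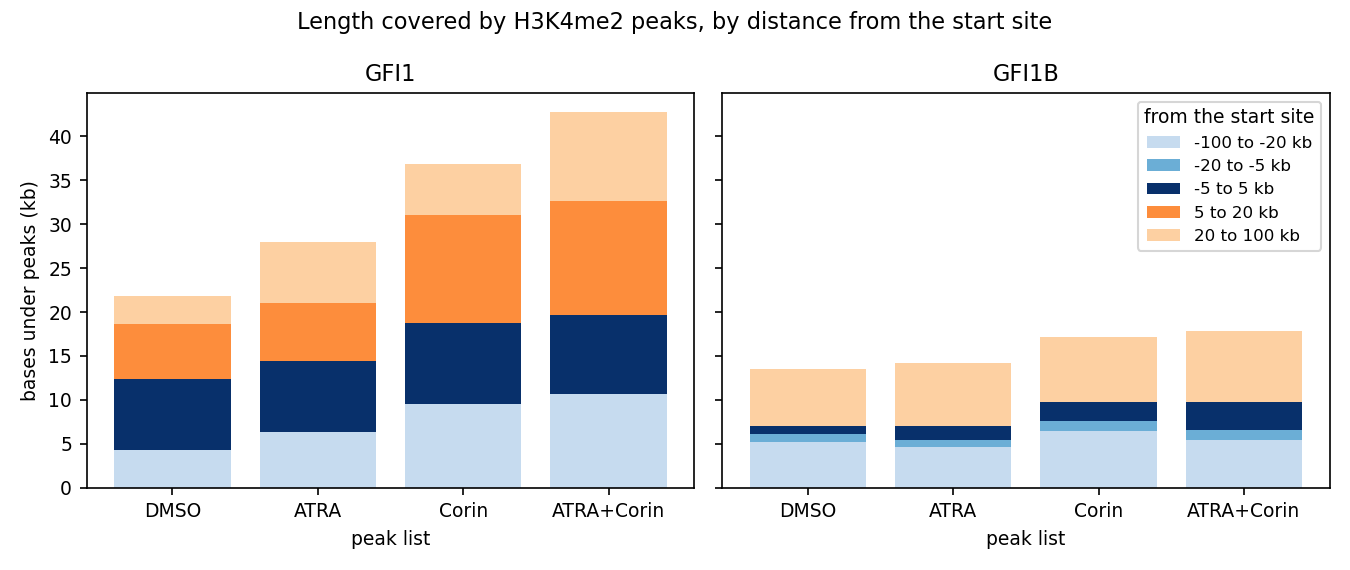
Bases under H3K4me2 peaks (kb) in each list for the GFI1 window (left) and the GFI1B window (right), stacked by distance from the start site. The GFI1 bars run from 21.8 kb with DMSO to 42.7 kb with both drugs, and the GFI1B bars from 13.6 to 17.8 kb.

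The length under peaks was also greater at GFI1 than at GFI1B in every list. In the GFI1 window peaks covered 21.8 kb with DMSO, 27.997 kb with ATRA, 36.9 kb with Corin and 42.7 kb with both drugs, beside medians over all protein-coding genes of 10.3, 11.6, 13.3 and 14.8 kb. In the GFI1B window they covered 13.6, 14.2, 17.2 and 17.8 kb in the same order. A ratio to DMSO of at least 1.5 was taken as a call. GFI1 was called higher with Corin, at a ratio of 1.69, and with both drugs, at 1.96, but not with ATRA, at 1.28. Of all genes, 4.36% were called higher with ATRA, 15.1% with Corin and 35.6% with both drugs, so with both drugs the call is common. A ratio of at most the inverse of 1.5, found at neither gene, was seen in 0.358%, 0.228% and 0.194% of genes. A ratio as high as that of GFI1 was reached by 14.9% of genes for ATRA, 7.02% for Corin and 9.87% for both drugs. GFI1B was called in no contrast, at ratios of 1.04, 1.26 and 1.31, beside medians over all genes of 1.10, 1.24 and 1.38. With a window of 50 kb, which leaves out most of the neighbours' start sites, the GFI1B ratio with both drugs was 1.89, where 34.8% of all genes were called higher and 12.6% reached that ratio. In that window GFI1B had ratios of 1.20 with ATRA and 1.47 with Corin, and 5.3% and 16.4% of genes were called higher. GFI1 had 1.13 with ATRA, 1.54 with Corin, which 14.0% of genes reached, and 1.67 with both drugs, which 22.3% reached. The order of the genes with both drugs was thus the reverse of that in the 100 kb window. The combination against ATRA gave a ratio of 1.53 for GFI1 and 1.26 for GFI1B, and 14.9% of genes were called higher and 0.166% lower. Against Corin it gave 1.16 and 1.04, and 4.37% were called higher and 0.144% lower.

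By distance, most of the added length at GFI1 lay outside the 5 kb around the start site. The zones were chosen after the values were seen, so the shares given here only place GFI1 among all genes. In the 15 kb from 5 to 20 kb downstream, peaks covered 6305 bp with DMSO, 6624 bp with ATRA, 12272 bp with Corin and 12934 bp with both drugs. The ratio of 1.95 with Corin was reached by 8.86% of genes in this zone, and that of 1.05 with ATRA lay below the median of 1.07. From 20 to 100 kb downstream the lengths were 3166, 6925, 5841 and 10132 bp, and here the ATRA ratio of 2.19 was reached by 1.18% of genes and that of both drugs, 3.2, by 2.07%. From 20 to 100 kb upstream they were 4329, 6392, 9535 and 10632 bp, and the Corin ratio of 2.20 was reached by 3.22% of genes. At GFI1 the length from 5 to 20 kb downstream was thus greater mainly in the lists with Corin, and the length farther out was greater in every drug list.

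**Figure D4:**
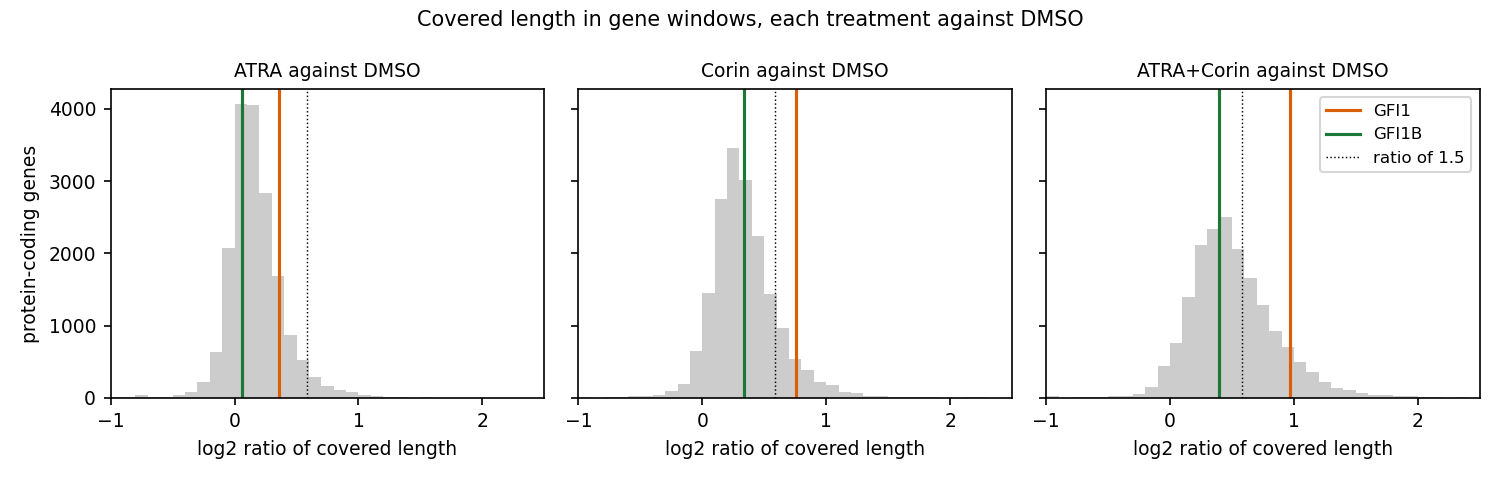
Histograms of the log2 ratio of covered length to DMSO over all protein-coding genes with at least 1 kb covered in either list, 1 panel per treatment. Lines mark GFI1, GFI1B and the ratio of 1.5: GFI1 lies right of that line with Corin and with both drugs, and GFI1B lies left of it in every panel.

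**Figure D5:**
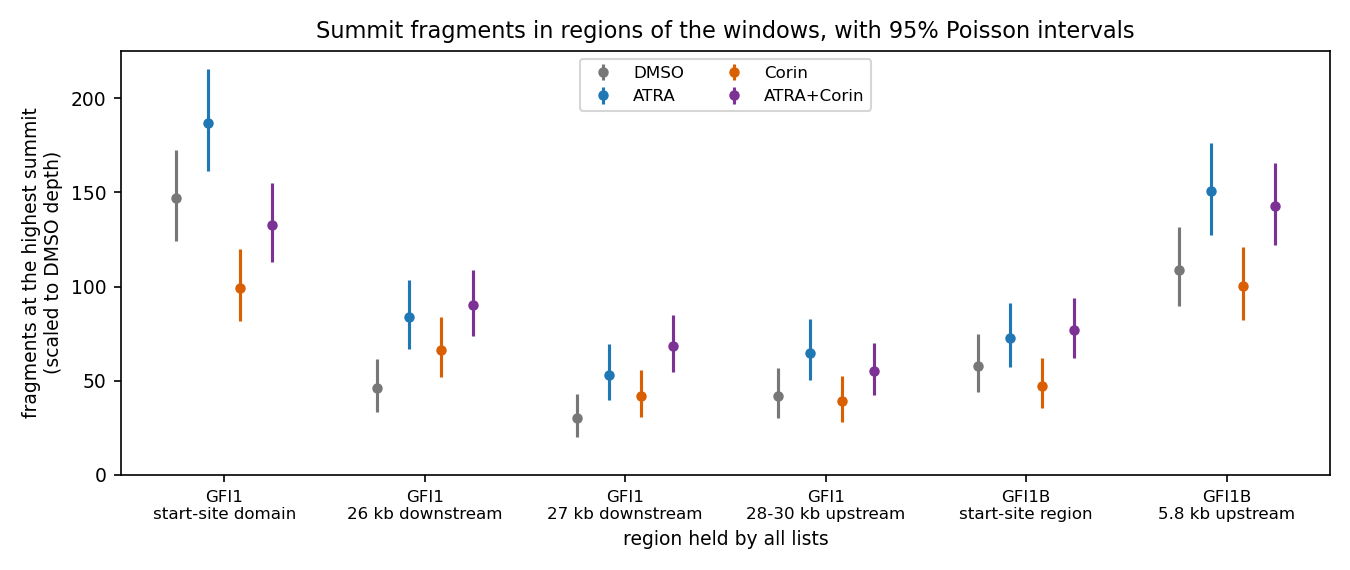
Fragments at the highest summit, scaled to DMSO depth, in 6 regions held by all lists, with 95% Poisson intervals that cover counting error only. Points are the pooled lists. The Corin point lies lowest at the GFI1 start-site domain, at 99.4, and also at the upstream GFI1 site and both GFI1B regions. The DMSO point lies lowest at the 2 sites downstream of GFI1.

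Sequences at distal sites are shown because they carry the mark in every list or only with drug. Each window is centred on a summit and is on the plus strand of GRCh38, with AATC in capitals on either strand. The first is the strongest GFI1 region of the ATRA+Corin list with no DMSO peak, its summit 39830 bp downstream (chr1:92446995-92447195). The second is the GFI1B upstream site (chr9:132972818-132973018) and the third the drug-only region inside GFI1B (chr9:132982268-132982468).
GFI1 drug-only region: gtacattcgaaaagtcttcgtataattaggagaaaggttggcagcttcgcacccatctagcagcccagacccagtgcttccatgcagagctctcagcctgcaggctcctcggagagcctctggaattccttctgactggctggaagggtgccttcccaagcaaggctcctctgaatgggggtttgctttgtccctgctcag
GFI1B upstream site: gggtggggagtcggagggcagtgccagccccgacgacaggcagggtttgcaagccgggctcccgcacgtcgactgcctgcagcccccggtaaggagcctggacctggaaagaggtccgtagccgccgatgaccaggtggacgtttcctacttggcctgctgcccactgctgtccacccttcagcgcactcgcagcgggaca
GFI1B drug-only region: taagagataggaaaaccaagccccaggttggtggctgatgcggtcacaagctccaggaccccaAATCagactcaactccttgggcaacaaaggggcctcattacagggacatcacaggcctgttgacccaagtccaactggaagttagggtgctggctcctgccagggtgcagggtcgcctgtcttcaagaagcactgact

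AATC was found in 1 of these 3 windows, the GFI1B drug-only region. Of windows of this length at the strongest summit of each ATRA+Corin region, 66.8% hold it. None of the 3 held AAATCAC (2.58% of all such windows), AGATAA (7.95%), or a retinoic acid receptor direct repeat with 2 bases (1.17%) or 5 bases (0.0727%) between the half-sites. The GFI1 window is a region with peaks in the ATRA list (−log10 q of 14.9) and the ATRA+Corin list (10.3) only.

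Other genes of the same pathway were read from lists. Of 6 further zinc finger genes with a SNAG domain, 5 had enough covered length to compare with ATRA and 6 with the other treatments. None was called higher with ATRA or Corin, and 1 with both drugs: SCRT2, a neural repressor, with 11.8 kb covered with DMSO and 19.5 kb with both drugs. Their median ratio with both drugs was 1.196, beside 1.38 over all genes. Of 9 genes of LSD1, CoREST and their partners, 0 were called higher with ATRA, 1 with Corin and 4 with both drugs, and their median ratio with both drugs was 1.498. KDM1A, which encodes LSD1, had the highest ratio of that list: its window held 5.14 kb with DMSO, 6.03 kb with ATRA, 9.365 kb with Corin and 11.5 kb with both drugs, a ratio of 1.82 for Corin and 2.25 for both drugs. PHF21A, a subunit of LSD1 complexes, had a ratio of 1.54 with both drugs. Of 9 genes known as targets of GFI1 or GFI1B, 1 was called higher with ATRA, 0 with Corin and 5 with both drugs, with a median of 1.58 for both drugs. CSF1, the growth factor of macrophages, had 14.02 kb with DMSO and 25.9 kb with both drugs (ratio 1.85). CDKN1A, which encodes the cell cycle inhibitor p21, had 39.03 and 70.4 kb (1.803), and MEIS1, a homeobox partner of HOXA9, had 18.5 and 31.8 kb (1.72). No gene of the 3 lists was called lower. Shares called over all genes were 4.36%, 15.1% and 35.6% for ATRA, Corin and both drugs.

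The genes whose covered length over the 4 lists was closest to that of GFI1 were FLI1, CTU1 and PTPN22, at distances of 0.08, 0.09 and 0.11 on the log2 scale. Covered lengths for FLI1 were 22.2, 27.3, 35.4 and 41.7 kb in the order DMSO, ATRA, Corin and both drugs. Close to GFI1B were SEC14L3 and TMEM186, at distances of 0.04 and 0.05. SEC14L3 had 13.9, 13.96, 17.2 and 17.95 kb in that order.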

How the data were processed

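H3K4me2 and input libraries of U-937 cells (8 and 4) were deposited as 4 narrowPeak lists, 1 per treatment. Per the submitters' processing notes the build is hg38 and the tools include Trimmomatic, Bowtie2, Picard and MACS2; versions, settings and thresholds are not given in the sources used here. Checked by list, 0 peaks ended past a GRCh38 chromosome. Each deposited peak has a fold ratio over input, a −log10 p and −log10 q, a score and a summit offset (other) from the authors' caller.

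Peaks that overlap or touch were joined genome-wide, and each resulting region counts as present wherever a list has a peak inside it. Gained and lost regions need a peak in 1 list and none in the other. Genes and canonical start sites are GENCODE 44. The gene window joins the gene body with 100 kb on either side of the start site. Covered length is bases under peaks, with a floor of 1 kb in ratios. Fold and −log10 p were solved for whole fragments (pseudocount 1, Poisson tail, tolerance 0.001), which left 0 peaks unsolved. Scripts (Python 3.11.15, numpy 2.4.6, pandas 2.3.3, scipy 1.17.1) were tested on simulated data. Motifs were searched on both strands. Library totals and values per replicate are not in the lists, so no test was run.

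The genes and gene lists were chosen with earlier results of these data known. The genes named from the lists are up to 3 per list past a ratio of 1.5, by size, and the 3 genes nearest to each member in log2 covered length; some of these genes and windows are not reported here. The zones by distance, the runs of regions, the 10 kb limit for wide regions and the windows printed were chosen after the values were seen. Alternatives tried were a cut on −log10 q at 5, equal peak numbers, equal depth, a 50 kb window, peaks within 1 kb merged, single peaks, and 50% of a region covered.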

Additional observations from a re-analysis of the deposited data

How the results depend on the processing

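No paired analysis was possible because each treatment has 1 pooled list, and for the same reason no replicate could be left out. Covered length ratios to DMSO were recomputed in the gene windows under 4 alternatives (−log10 q, peak number, depth and window) and within 5 kb of the start sites under the first 3. They stayed above 1 in these, and those of the GFI1 window stayed on the same side of 1.5 (1.54 to 1.69 with Corin and 1.67 to 1.99 with both drugs). With a window of 50 kb the GFI1B ratio with both drugs was 1.89. That window held 5 DMSO, 8 ATRA, 12 Corin and 13 ATRA+Corin regions at GFI1 and 5 DMSO, 7 ATRA and 7 Corin regions at GFI1B. Within 5 kb of the GFI1B start site the Corin ratio was 1.44 with a −log10 q of at least 5 and 1.44 at equal depth with a −log10 p of at least 5; these alternatives for that zone were added after the data were seen. The GFI1 regions of the Corin list numbered 12 under each of those 2 settings. With peaks within 1 kb merged, GFI1 had 8 ATRA, 8 Corin and 8 ATRA+Corin regions, 2 of them gained by the combination against DMSO. With at least 50% of a region covered, GFI1 had 4 DMSO and 9 ATRA regions. With a −log10 q of at least 5 the combination gained 2 regions at GFI1B against DMSO. Single peaks moved no count of regions past 1.5 times. The smaller window holds less sequence, and merging joins neighbours; the cause of the other shifts was not tested. At equal depth with a −log10 p of at least 5, the regions gained at GFI1 numbered 4 for ATRA, 5 for Corin and 11 for the combination, and with equal peak numbers 6, 7 and 9. Shares of all regions gained with filtered or merged peaks were not computed. The lists give no library totals, so depth is known only relative to DMSO.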
